A study of Mus musculus with 2 samples.

Results

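The 35 genes described here encode the enzymes, carriers and regulators of fatty acid oxidation in mitochondria and peroxisomes. They form a list of gene symbols, and all 35 were found among the 27998 genes of each library. By the role of their products they were divided into 19 mitochondrial enzymes and carriers, 4 peroxisomal enzymes, 4 proteins of peroxisome transport and assembly, 3 enzymes known from both organelles, 2 enzymes of acyl-CoA supply and 3 regulators. The question was whether the mitochondrial and the peroxisomal arms differed between control and stimulated cells, and whether they did so together.

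Fatty acids are burned in 2 places. In mitochondria, acyl groups enter as carnitine esters and pass repeatedly through dehydrogenation, hydration, a further dehydrogenation and thiolysis, and the electrons of the acyl-CoA dehydrogenases reach the respiratory chain through the electron transfer flavoprotein. Peroxisomes shorten very long and branched acyl chains with their own set of enzymes, and catalase removes the hydrogen peroxide formed on the way. Nuclear receptors of the PPAR family control many of these genes, and lung lipofibroblasts, which store lipid in the alveolar wall, are a cell type in which PPARG is well known.

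Both libraries came from wild-type C57BL/6 lung fibroblasts (an inbred mouse strain), grown from whole lung suspension and profiled from transcript 3′ ends by droplet single-cell sequencing, which tags every captured molecule with a unique molecular identifier (UMI). The control library held cells kept with vehicle, and the stimulated library held cells treated from passage 3 for 14 days, with control cells taken from the same lung. The protocol lists 10 µM rosiglitazone (an agonist of PPARG), 1 µM SB4315442, 4 µM rhBMP4 (recombinant human BMP4) and ITS+3 medium supplement at 1% beside medium with 10% FBS, and the labels do not say which agents the stimulated library received. The sources used here do not give the age or number of the animals. With 1 library per group there was no replicate check, no test across samples was possible, and library and stimulation cannot be told apart.

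Among all deposited barcodes, 53 occurred in both libraries. After filtering, 4703 control and 7468 stimulated cells remained, with 88573140 and 117193148 UMIs. All 12 fibroblast markers were detected in both libraries, at a summed level of 13520 and 6934 UMIs per 1000000 UMIs (CPM). The 12 macrophage markers summed to 761 CPM in control and 19.2 CPM in stimulated cells, where 150 and 1 cells were macrophage-like, and to 82.2 and 18.9 CPM within fibroblast-like clusters. Cycling genes summed to 453 and 678 CPM. Adipocyte markers were at 1.16 and 4.78 CPM, with 3 and 2 of 8 at 0. The 8 markers of smooth muscle and pericytes summed to 1281 and 237 CPM, and to 1260 and 237 CPM within fibroblast-like clusters. The part of these shifts in the results below was not tested.

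A level below is the UMIs of a gene summed over all kept cells, in CPM of the library, and a fold is the stimulated over the control level. Because a 3′ UMI is counted once per molecule, levels were not divided by length. The 95% intervals of folds (conditional Poisson, exact) cover counting error only. A gene was counted as measured at a mean of at least 5 CPM, and as higher or lower at 1.5-fold.

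Most members were at similar levels in both libraries, and a few were far apart. Of the 31 measured members, 5 were at least 1.5-fold higher in the stimulated library, against 7.75% of all 8787 measured genes. They were Acot1, Acadl, Acaa2, Ech1 and Pex11a. Acot2 and Abcd3 were the 2 that were at least 1.5-fold lower, against 12% of all genes, and 24 lay between. With TMM scaling the split was 5 higher and 1 lower, against 10.2% and 9.46% of all genes, because Abcd3 then stayed short of 1.5-fold. With totals that leave out mitochondrially encoded and ribosomal protein genes it was again 5 and 1, against 8.64% and 10.9%. The median log2 fold was 0.07 over the measured members and -0.06 over all genes. A fold above 1 was found for 19 members, 61.29%, against 42.62% of all genes. TMM scaling moved the median of all genes up by 0.10, so members with log2 folds between about -0.10 and 0 changed sign under it.

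**Figure D1:**
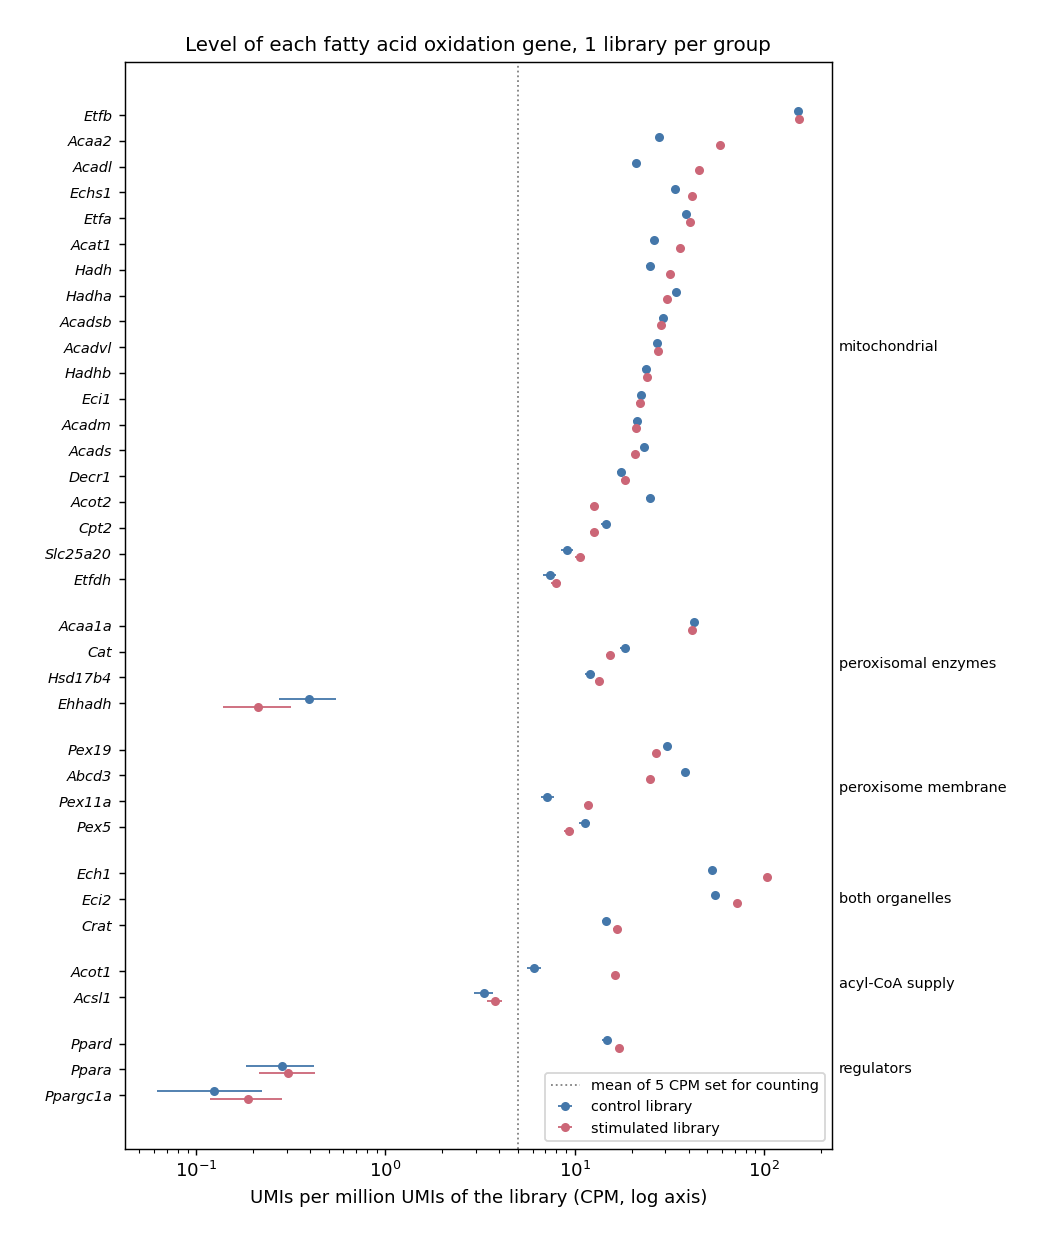
Level of each of the 35 genes in the control (blue) and stimulated (red) library, in CPM on a log axis, with 95% counting intervals. Etfb is the most abundant at 150 and 153 CPM, and Ehhadh, Acsl1, Ppara and Ppargc1a lie left of the dotted line at 5 CPM.

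The acyl-CoA dehydrogenases, which open each round of the mitochondrial spiral, were near even between the libraries except for 1 gene. Acadl (ENSMUSG00000026003), the long-chain enzyme, was at 21.2 CPM in control and 45.5 CPM in stimulated cells, a fold of 2.15 (2.04 to 2.26). Acadvl, the very-long-chain enzyme, was at 27.3 and 27.6 CPM, and Acadm, the medium-chain enzyme, at 21.3 and 21.2 CPM. The counting intervals of both folds, 0.960 to 1.07 and 0.937 to 1.06, included 1. Acads, which acts on short chains, was at 23.3 and 20.8 CPM, and Acadsb, which acts on short branched chains from amino acid breakdown, at 29.1 and 28.5 CPM. Of these 5 genes Acadl alone was past 1.5-fold, and in the control library it was the least abundant of them, with an interval that overlapped that of Acadm.

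Downstream of the dehydrogenases, the thiolase that ends each round had the highest fold. Acaa2 (ENSMUSG00000036880), the mitochondrial 3-ketoacyl-CoA thiolase, was at 28.0 CPM in control and 58.9 CPM in stimulated cells, a fold of 2.11 (2.01 to 2.21). Acat1, the acetoacetyl-CoA thiolase, was at 26.3 and 35.9 CPM, a fold of 1.37. Hadh, the hydroxyacyl-CoA dehydrogenase of shorter chains, was at 24.99 and 31.9 CPM, and Echs1, the short-chain enoyl-CoA hydratase, at 33.9 and 41.4 CPM. These 3 lay above 1 by more than counting error and stayed below 1.5-fold. The 6 genes of these later steps summed to 171 CPM in control and 223 CPM in stimulated cells, a fold of 1.303 (1.28 to 1.33). The 5 dehydrogenases had a summed fold of 1.175 (1.147 to 1.204). Median log2 folds were 0.32 over the later steps and -0.01 over the dehydrogenases. Among these genes only Acaa2 and Acadl were past 1.5-fold.

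Hadha and Hadhb encode the alpha and beta subunits of the trifunctional protein, which carries out the later steps on long chains. Hadha was at 34.4 and 30.9 CPM, and Hadhb at 23.7 and 24.0 CPM, so neither was near 1.5-fold. In RefSeq's GRCm38.p6 annotation the start sites of these genes lie 272 bases apart and point away from each other. The 250 bases upstream of Hadhb, on the plus strand at chr5:30155003-30155252, therefore fill nearly all of the interval that both genes share, and are shown for that reason in lower case throughout because no motif is marked in them.
Hadhb: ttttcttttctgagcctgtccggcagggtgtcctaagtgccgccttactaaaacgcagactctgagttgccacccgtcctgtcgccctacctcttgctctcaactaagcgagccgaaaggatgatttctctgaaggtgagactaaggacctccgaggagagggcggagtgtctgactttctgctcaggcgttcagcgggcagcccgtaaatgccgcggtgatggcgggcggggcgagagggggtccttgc

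The members of electron transfer and the carnitine side and the auxiliary enzymes all stayed short of 1.5-fold. Cpt1a, which is not a member, is given with the wider pathway. Etfb, the beta subunit of the electron transfer flavoprotein, was the most abundant member at 150 and 153 CPM, with a fold of 1.014 (0.991 to 1.04). Of 90-base windows from the last 400 bases of its transcripts, 52.8% also matched the listed gene RP23-74K24.2. That gene was counted 1 time in the control and 3 times in the stimulated library. Etfa, the alpha subunit, was at 38.7 and 40.8 CPM, and Etfdh, which passes the electrons to ubiquinone, at 7.37 and 7.97 CPM. Slc25a20, the carnitine-acylcarnitine translocase, was at 9.11 and 10.7 CPM, a fold of 1.172 (1.072 to 1.282). Cpt2, which returns acyl groups to CoA inside the mitochondrion, was at 14.6 and 12.7 CPM, a fold of 0.8695 (0.8065 to 0.9376). Eci1 and Decr1, which rearrange unsaturated acyl chains, were at 22.5 against 22.0 and 17.5 against 18.4 CPM. Over the 19 mitochondrial genes the summed level was 578 CPM in control and 644 CPM in stimulated cells, a fold of 1.114 (1.101 to 1.126). Their median log2 fold was 0.02, with 2 members past 1.5-fold upward and 1 downward, and it was -0.01 where each cell was weighted equally.

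The cytosolic and mitochondrial acyl-CoA thioesterases Acot1 and Acot2, which release free fatty acids from acyl-CoA, were apart in opposite directions. Acot1 (ENSMUSG00000072949) was at 6.11 CPM in control and 16.4 CPM in stimulated cells, the highest fold of any member at 2.69 (2.44 to 2.96). Acot2 (ENSMUSG00000021226), the mitochondrial form, was at 24.96 and 12.68 CPM, a fold of 0.508 (0.475 to 0.543). In the control library Acot2 was thus the more abundant of the pair, and in the stimulated library Acot1 was. Acot2 was most abundant in unnamed clusters of shallow cells, at 177 CPM from 228 UMIs in cluster 3 of the control and 54.8 CPM from 74 UMIs in cluster 13 of the stimulated library. Within fibroblast-like clusters alone its log2 fold was -0.94, against -0.98 over all kept cells. No 90-base window from the last 400 bases of either transcript matched another listed gene within 2 mismatches, so shared reads between these close relatives were not found in that search. The further relatives Acot3 and Acot4 were at 0.034 and 0.610 CPM in the control library and at 0.017 and 0.563 CPM in the stimulated library.

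The neighbouring genes Acot1 and Acot2 lie on the plus strand of chromosome 12, and their upstream windows are shown so that those of related genes with opposite folds can be compared. In a global alignment of the 2 windows of 250 bases, 127 of 272 columns were identical, 46.7%. The capitals mark CCAAT or, on the other strand, ATTGG, the letters of the CCAAT box searched on both strands. The windows are chr12:84009252-84009501 for Acot1 and chr12:83987611-83987860 for Acot2, in RefSeq's GRCm38.p6.
Acot1: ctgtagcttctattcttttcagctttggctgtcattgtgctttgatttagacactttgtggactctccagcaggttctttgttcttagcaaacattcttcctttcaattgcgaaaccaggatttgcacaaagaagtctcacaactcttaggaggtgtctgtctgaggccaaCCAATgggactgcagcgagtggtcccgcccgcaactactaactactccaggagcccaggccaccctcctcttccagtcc
Acot2: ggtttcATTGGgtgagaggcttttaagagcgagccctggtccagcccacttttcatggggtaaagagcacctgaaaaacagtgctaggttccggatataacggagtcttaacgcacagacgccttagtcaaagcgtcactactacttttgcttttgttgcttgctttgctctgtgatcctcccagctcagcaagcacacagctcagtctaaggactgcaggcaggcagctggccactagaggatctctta
Each window holds these letters at its own position. They occurred in 13 of the 29 members with an entry, 44.8%, and in 37.5% of 27025 genes with windows of the same length.

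The peroxisomal enzymes were close to even. Acaa1a, the peroxisomal thiolase, was at 42.7 CPM in control and 41.4 CPM in stimulated cells, Hsd17b4, the multifunctional enzyme of branched chains, at 12.02 and 13.47 CPM, and Cat, the peroxide-degrading catalase, at 18.3 and 15.3 CPM. Ehhadh, the multifunctional enzyme of straight chains, was counted 35 and 25 times, 0.395 and 0.213 CPM, and entered no count. None of the 3 measured enzymes was past 1.5-fold. Summed, the 4 genes were at 73.4 and 70.4 CPM, a fold of 0.959 (0.929 to 0.991), which became 1.03 with TMM scaling. Macrophage-like cells, which were nearly all in the control library, held 145 CPM of this sum and 42.6 CPM of Cat, and without cells holding macrophage markers the fold was 0.980. Of the 3′ windows of Acaa1a, 46% also matched its near copy Acaa1b, which was counted at 0.260 and 0.290 CPM.

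Set against the mitochondrial genes, the peroxisomal sum was smaller in the stimulated library, largely through Acadl and Acaa2. Per 100 mitochondrial UMIs the 4 peroxisomal genes gave 12.69 UMIs (12.37 to 13.02) in the control and 10.93 (10.69 to 11.18) in the stimulated library. This ratio does not depend on how the libraries are scaled, and its intervals cover counting error only. Without Acadl and Acaa2 it was 13.9 and 13.1 UMIs, and the other 17 mitochondrial genes summed to 529 and 540 CPM, a fold of 1.02. The ratio also depends on where the enzymes of both organelles are placed: with Ech1, Eci2 and Crat counted as peroxisomal, the peroxisomal sum was 1.34-fold higher and exceeded the mitochondrial fold.

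Those 3 enzymes of both organelles were all above 1. Ech1 (ENSMUSG00000053898), a dienoyl-CoA isomerase for unsaturated chains, was at 53.1 CPM in control and 103 CPM in stimulated cells, a fold of 1.95 (1.88 to 2.01) and the widest difference in CPM of any member. Eci2, an enoyl-CoA isomerase, was at 55.2 and 72.0 CPM, a fold of 1.31, and Crat, carnitine acetyltransferase, at 14.7 and 16.7 CPM. Their sum was 123 and 192 CPM, a fold of 1.56 (1.526 to 1.597). Some 18.6% of the 3′ windows of Eci2 also matched Eci3, which was counted at 0.147 and 0.026 CPM.

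On the peroxisome membrane, 1 gene was higher and 1 lower. Pex11a (ENSMUSG00000030545), which promotes peroxisome elongation and division, was at 7.15 and 11.8 CPM, a fold of 1.644 (1.495 to 1.809). Abcd3 (ENSMUSG00000028127), an importer of branched acyl-CoA and bile acid precursors, was at 38.4 and 25.1 CPM, a fold of 0.653 (0.622 to 0.687). The intervals of Pex11a and Abcd3 both reach back to values short of 1.5-fold. Pex19, a chaperone of peroxisomal membrane proteins, was at 30.9 and 27.0 CPM, and Pex5, the receptor that imports matrix enzymes, at 11.3 and 9.34 CPM.

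Acyl-CoA supply and the regulators were mostly low. Acsl1, a long-chain acyl-CoA synthetase, was at 3.31 and 3.77 CPM, below the level set for counting. Ppard, the PPAR subtype found in most tissues, was at 14.8 and 17.2 CPM, a fold of 1.165. Ppara, the subtype best known from liver, was counted 25 and 36 times, and Ppargc1a, a coactivator of mitochondrial genes, 11 and 22 times, so their folds rest on few molecules, and the counting intervals of both include 1. Pparg was at 3.66 and 4.11 CPM.

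**Figure D2:**
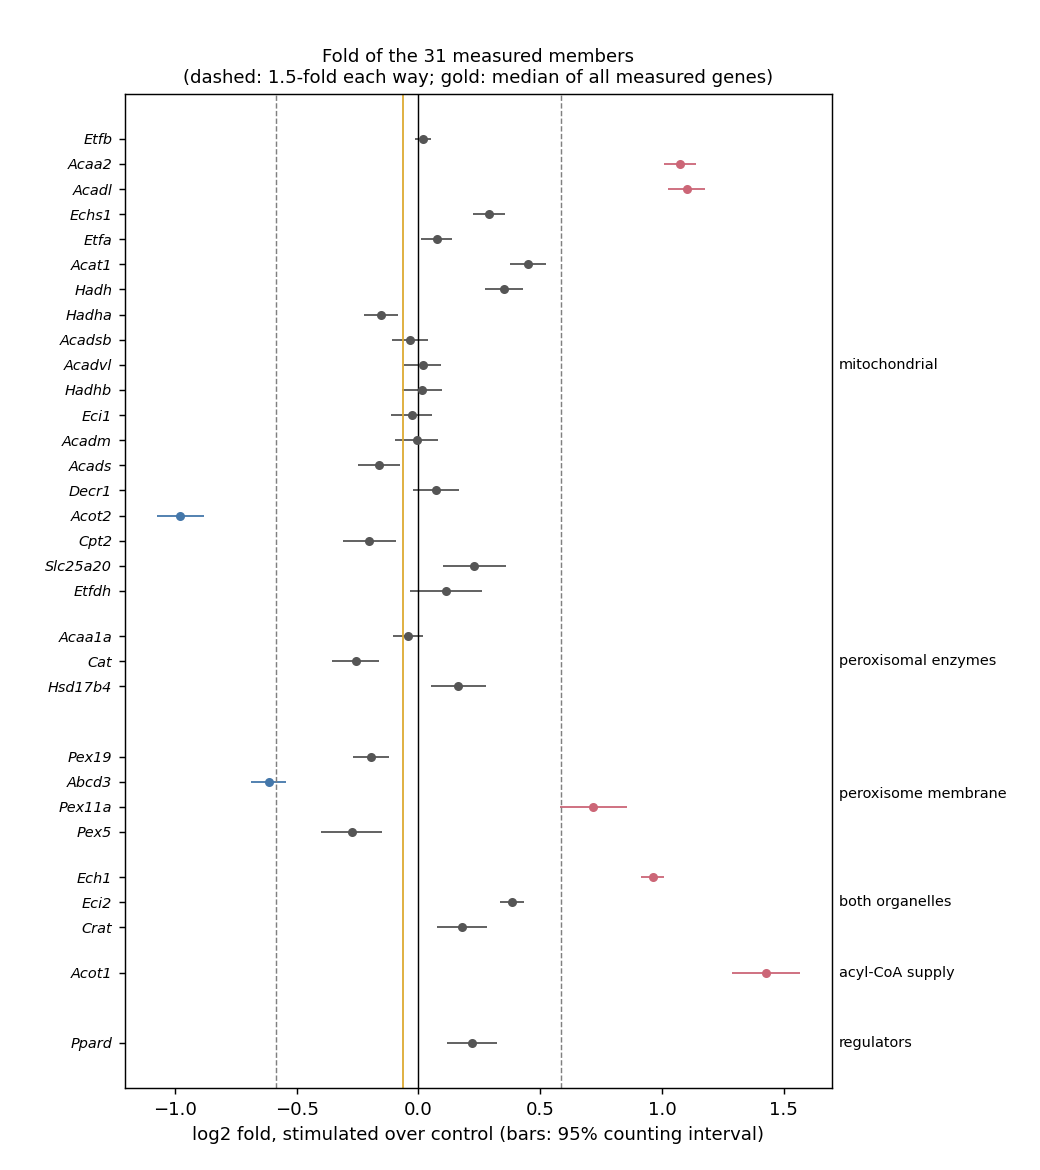
Log2 fold, stimulated over control, of the 31 measured members with 95% counting intervals; dashed lines mark 1.5-fold and the gold line the median of all measured genes at -0.06. Acot1, Acadl, Acaa2, Ech1 and Pex11a (red) lie right of the upper line, and Acot2 and Abcd3 (blue) left of the lower one.

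The wider pathway was read from a further list of 56 genes, of which 36 were measured. Of these 3 were at least 1.5-fold higher, against 7.75% of all genes, and 1 lower, against 12%, so the higher share was near that of all genes. The median log2 fold was -0.09. Cpt1a, which makes the carnitine esters at the outer mitochondrial membrane, was at 11.08 and 24.21 CPM, a fold of 2.19 (2.03 to 2.35). Abcd4, an ABC transporter known from cobalamin export from lysosomes, was at 8.73 and 17.4 CPM. Gcdh, the glutaryl-CoA dehydrogenase of lysine breakdown, was at 4.40 and 6.68 CPM, a fold of 1.517 (1.342 to 1.718). Gcdh passed the level set for counting only through the stimulated library. Scp2, which encodes a sterol carrier protein and a peroxisomal thiolase, was the most abundant of the list and the lower one, at 175 and 109 CPM, a fold of 0.624 (0.609 to 0.638). The 28 genes listed as further peroxisomal, Abcd4 among them, summed to 416 and 343 CPM, a fold of 0.826 (0.815 to 0.838). Scp2 carried most of this difference: without it the other 27 genes summed to 240.1 and 233.9 CPM, a fold of 0.974, which is within the TMM shift of 1. These 27 genes still held Abcd4, which was higher in the stimulated library, and a sum without it was not made. The 18 genes listed as further mitochondrial summed to 343.5 and 333 CPM, a fold of 0.970 (0.955 to 0.984). That fold is also within the TMM shift of 1, and lay below the 1.114 of the 19 mitochondrial members.

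Abundant genes of each further group were mostly between the thresholds. Among entry genes, the acyl-CoA synthetases Acsl4 and Acsl5 were at 26.1 against 24.8 and 20.7 against 18.1 CPM, and Cpt1c, a brain-type relative of Cpt1a, at 15.8 against 19.8 CPM. The peroxisome assembly genes Pex2 and Pex14 were at 30.8 against 28.4 and 24.0 against 23.5 CPM. Among mitochondrial genes, Oxct1, which activates ketone bodies, was at 99.3 and 93.2 CPM, Hsd17b10, of isoleucine breakdown, at 83.4 and 105 CPM, and the thioesterase Acot13 at 90.9 and 60.8 CPM. The corepressor Ncor1 was at 72.7 against 68.6 CPM, and Rxra, the PPAR partner receptor, at 15.21 against 19.01 CPM.

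Known PPAR targets outside the members, Cpt1a included, were set beside them. Of 10 such genes 7 were measured, with 6 at least 1.5-fold higher, against 7.75% of all genes, and Ucp2, an uncoupling protein, lower at 9.16 and 2.61 CPM. The level set for counting bears on this split. Cd36, a fatty acid transporter, was at 3.71 and 0.196 CPM and the hormone gene Fgf21 at 0.316 and 0.060 CPM, both lower and both left out by it, and Ucp3 was counted 0 and 2 times. Fabp4, Angptl4 and Plin2, which serve lipid binding, lipase inhibition and lipid droplets, were the most abundant of them, at 11.9 against 145, 16.5 against 122 and 41.1 against 71.5 CPM. Pdk4, which restrains glucose oxidation, was at 1.07 and 14.3 CPM and passed it only through the stimulated library, as did Lpl, which frees fatty acids from lipoproteins, at 4.52 and 13.2 CPM.

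PPARs with RXR bind direct repeats of a half-site with 1 base between, so the letters AGGTCANAGGTCA were searched on both strands in RefSeq's promoter windows, from 250 bases before to 50 after the start, in GRCm38.p6. With up to 2 of 12 bases differing, 4 of the 29 members with an entry held a match, 13.8%, against 4.40% of 27025 genes. With at most 1 base differing no member held one, against 0.644% of all genes. Of the 7 members past 1.5-fold, 6 had an entry and none held a match in this window. The matches are shown because they are the nearest letters to the repeat among the members, with the repeat in capitals and the sequence on the gene's strand. They lie at chr2:103485335-103485367 for Cat, chr7:140116482-140116514 for Echs1 and chr9:55512298-55512330 for Etfa, all on the minus strand, and at chr9:108662142-108662154 on the plus strand for Slc25a20.
Cat: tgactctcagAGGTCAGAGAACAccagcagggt
Echs1: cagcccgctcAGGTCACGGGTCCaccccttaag
Etfa: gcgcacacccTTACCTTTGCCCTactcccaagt
Slc25a20: AGGTGAAAGGTCG
In Etfa the repeat reads on the other strand. The 4 genes had folds of 0.836, 1.22, 1.05 and 1.17, all short of 1.5-fold.

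Joint clustering of the cells gave 5 fibroblast-like clusters from the control and 4 from the stimulated library, each almost wholly of 1 library. These clusters are not replicates, and their levels are given as a description. Acaa2 ranged from 23.3 to 47.4 CPM over the control clusters and from 47.6 to 126 CPM over the stimulated ones, and Pex11a from 5.08 to 8.73 and from 10.2 to 13.4 CPM. Every stimulated cluster was above every control cluster for these 2 members, as for 4.55% of all genes. Abcd3 ranged from 33.8 to 55.3 and from 22.5 to 26.2 CPM, and was the 1 member with every stimulated cluster below, as were 10.6% of all genes. For the other 28 measured members the ranges overlapped. Ech1 ranged from 41.1 to 117 and from 92.3 to 236 CPM, and the overlap came from a single control cluster.

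That cluster, number 5, and its counterpart in the stimulated library, number 14, were the fibroblast-like clusters with the highest mitochondrial sum of their library, and were picked for that. Cluster 5 held 316 control cells, 6.72% of the library, and cluster 14 held 338 stimulated cells, 4.53%, and both had the lysosomal protease gene Ctsl and the sugar epimerase gene Renbp among their leading genes. Cluster 5 also had the chaperone gene Hspa5 and the matrix protease gene Mmp3 there, and cluster 14 the interferon-induced genes Ifit1, Ifit3 and Isg15. The mitochondrial genes summed to 961 CPM in cluster 5 against 526 CPM in the other fibroblast-like control clusters, and to 1162 against 606 CPM in cluster 14. An unnamed cluster of 57 control and 67 stimulated cells, led by Chchd10 and Derl3, had a sum of 1050 CPM at a median of 2624.5 UMIs per cell.

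**Figure D3:**
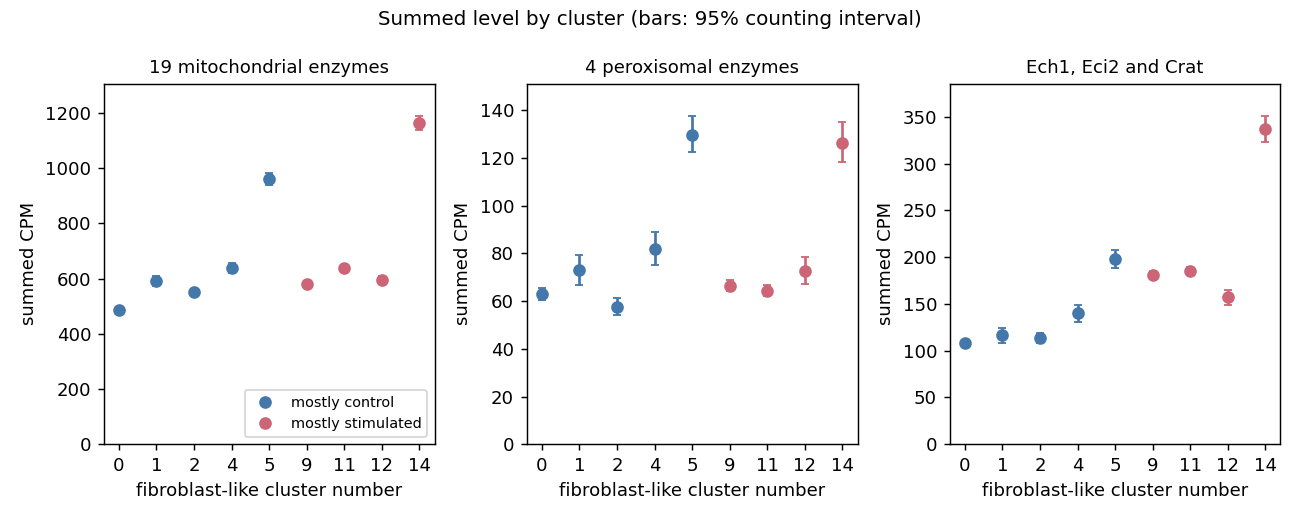
Summed level, in CPM with 95% counting intervals, of 3 groups of members in each fibroblast-like cluster, blue for clusters mostly of control cells and red for those mostly of stimulated cells. Clusters 5 and 14 are highest in each panel among the clusters of their library, at 961 and 1162 CPM for the mitochondrial genes.

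Within these clusters the members did not all stand high. In cluster 5, 16 of 31 measured members were at least 1.5-fold above the other fibroblast-like clusters, against 15% of all genes, and in cluster 14, 15 members were, against 12.7%; the same 15 genes were past the line in both. Since the clusters were chosen by this sum and formed from all genes, nothing is read from those shares. Acadvl was at 64.8 against 22.5 CPM in the control and 68.0 against 24.6 CPM in the stimulated library, and Eci1 at 51.0 against 18.6 and 52.6 against 19.7 CPM. Decr1 stood at 40.7 against 14.1 and 37.5 against 16.9 CPM. Acadvl and Eci1 had folds of only 1.012 and 0.981 between the libraries, yet the 2 highest ratios of any member in cluster 14.

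The peroxisomal genes stood high in the same clusters. Their sum was 130 against 64.4 CPM in cluster 5 and 126 against 66.1 CPM in cluster 14, ratios of 2.02 (1.89 to 2.15) and 1.91 (1.78 to 2.05). Hsd17b4 was at 26.1 against 9.90 and 26.3 against 12.4 CPM. Acadsb, Acot2, Abcd3, Pex11a, Crat and Ppard had ratios below 1 in both libraries. Among the peroxisome membrane genes Pex19 alone was above 1 in both, at 1.196 and 1.185. A set of 92 nuclear genes of the respiratory chain and ATP synthase had ratios of 1.249 and 1.243. It was picked by gene symbol and takes in assembly factors of complex I. Cells of these clusters held more UMIs, with medians of 28578 against 21044 and 19712 against 15910, and a smaller share of mitochondrially encoded UMIs, 1.09 against 1.39% and 0.852 against 1.104%; the part of depth in these levels was not tested.

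**Figure D4:**
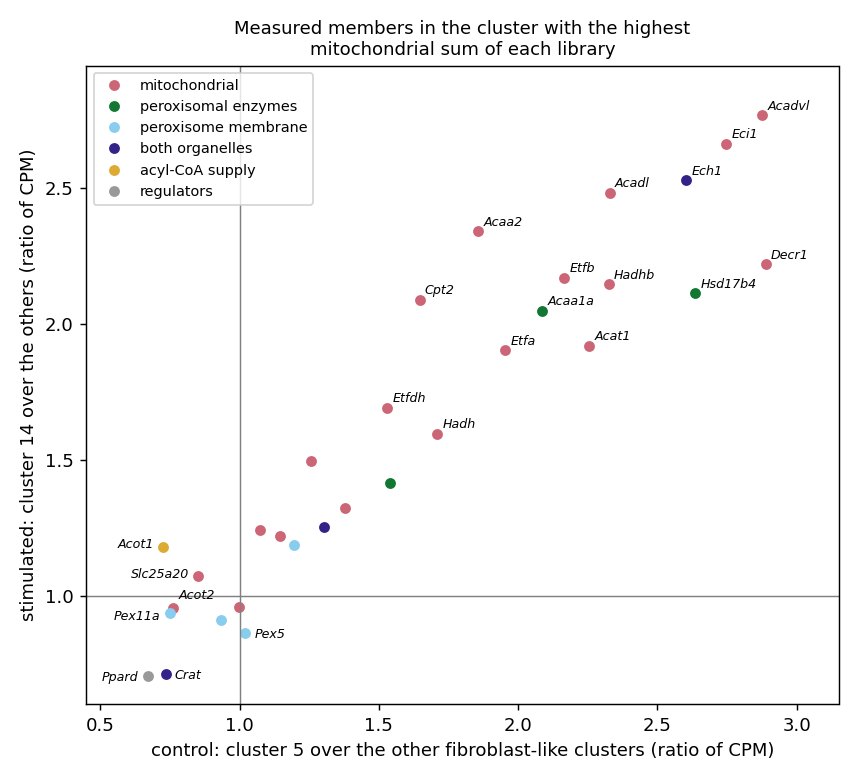
Ratio of each measured member's CPM in the cluster with the highest mitochondrial sum to that in the other fibroblast-like clusters, control library on the x axis and stimulated library on the y axis. Acadvl, Eci1 and Ech1 lie at the upper right with ratios above 2.5 in both, and Crat and Ppard at the lower left.

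Fibroblast-like clusters of the 2 libraries that shared at least 2 of their 10 leading genes were set side by side, a comparison chosen after the data were seen. The 4 pairs were led by Meg3 and Tshz2 (clusters 0 and 9), by Hsd3b6 and Gzme (1 and 12), by cycling genes (2 and 11) and by Ctsl and Renbp (5 and 14). Ech1 had folds of 2.25, 1.82, 2.11 and 2.02 in that order, and Acaa2 2.25, 1.52, 2.29 and 2.66. Acadl had folds of 2.49, 1.45, 2.06 and 2.41, and Pex11a 1.54, 2.14, 1.89 and 1.99. Abcd3 was lower in all 4 pairs, at 0.658, 0.575, 0.748 and 0.627.

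The opposite folds of the thioesterases were absent from the pair led by Hsd3b6 and Gzme. Acot1 was at 10.99 CPM in cluster 1 and 9.92 CPM in cluster 12, a fold of 0.902 (0.661 to 1.23), and Acot2 at 9.76 and 14.2 CPM, a fold of 1.45 (1.08 to 1.97). In the other pairs Acot1 had folds of 3.34, 2.29 and 4.05 and Acot2 folds of 0.537, 0.499 and 0.662. Among the fibroblast-like control clusters, cluster 1 had the highest Acot1 and the lowest Acot2. The mitochondrial sum was likewise near even in that pair, at 590 and 594 CPM, and 1.16-fold to 1.21-fold higher in the others.

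**Figure D5:**
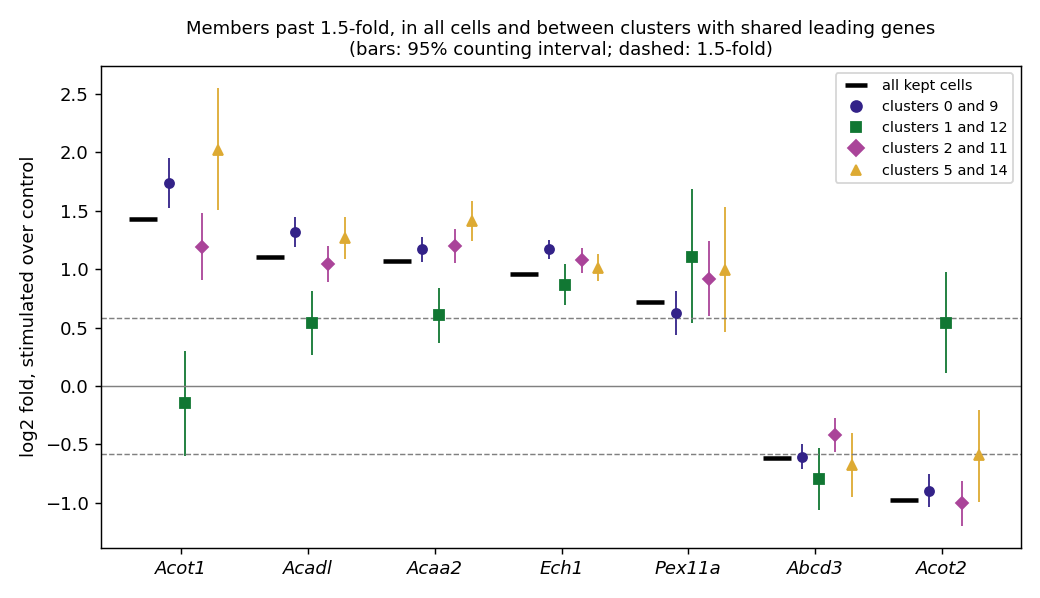
Log2 fold, stimulated over control, of the 7 members past 1.5-fold over all kept cells (black bars) and in 4 pairs of clusters with shared leading genes, with 95% counting intervals. Acot1 and Acot2 change side in clusters 1 and 12 (green), at -0.15 and 0.54, and the other 5 members keep their side.

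Per cell the pathway is counted by few molecules. After each cell was thinned to 5000 UMIs, leaving out 626 control and 760 stimulated cells that were shallower, the mitochondrial genes gave 2.85 ± 1.97 UMIs (mean and SD over 4077 cells) in the control and 3.19 ± 2.13 UMIs (6708 cells) in the stimulated library. Counting alone would give SDs of 1.69 and 1.79 at these means. The peroxisomal genes gave 0.374 ± 0.635 and 0.353 ± 0.610 UMIs, where counting alone would give 0.612 and 0.594, so a difference between cells was hardly detectable at this depth. Ech1, Eci2 and Crat together gave 0.623 ± 0.815 and 0.944 ± 1.05 UMIs. Without thinning the median mitochondrial sum was 10 and 9 UMIs per cell, which does not take depth into account. The median depth over all kept cells was 19634 and 15379.5 UMIs. Per 10000 UMIs of each cell the median mitochondrial sum was 5.14 and 5.83.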

How the data were processed

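Droplet 3′ single-cell libraries were analysed for 1 control and 1 stimulated sample, grouped by the sample titles. The authors deposited a sparse matrix of UMI counts per gene and barcode for each library, without normalization. Cell Ranger 3.0.2 is named per the file headers, and Cell Ranger 1.3.1 and Seurat 3.0.0 per the submitters' processing notes. The genome build is not given in the sources used here, nor are the annotation and any barcode filter.

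Barcodes with at least 500 genes and at most 20% mitochondrial UMIs were kept, which left 4703 of 5016 and 7468 of 7698. The deposited totals were 88876791 and 117381412 UMIs. Scrublet in scanpy 1.11.5 marked 1 and 0 cells, which is too few for a working caller, so doublets remain in the data. Cells of both libraries were clustered together with 2000 variable genes, 30 components, 15 neighbours and Leiden resolution 0.5. A cluster was named only where at least 3 markers of a type were detected in at least 25% of its cells. Names other than fibroblast-like also needed 2 markers among the 10 leading genes. A cluster with a median depth more than 3-fold below its library's was left unnamed unless a marker of its type was a leading gene. Clusters 3, 7, 10 and 13 were unnamed for their depth, although 10, 9, 12 and 8 of the 12 fibroblast markers were detected in them. Counts were summed over cells and scaled to CPM. Fold intervals were computed in scipy 1.17.1, TMM factors in edgeR 4.0.16, and 3′ windows were aligned to GENCODE M21 transcripts with minimap2 2.31. Fold and interval code was tested on simulated data. The C-terminal signals of the proteins were not analysed here.

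The members and lists were chosen with earlier results of these data known. Every member is named; of the further pathway list, genes past 1.5-fold and the 3 most abundant of each group are named, except that 1 gene this rule selects is not reported here, and other genes were named after their values were seen. Alternatives covered scaling, cell filters, level filters, thresholds and the placing of Ech1, Eci2 and Crat.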

Additional observations from a re-analysis of the deposited data

How the results depend on the processing

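With 1 library per group no replicate could be left out. No paired analysis was possible because each group holds a single library. Of 9 planned changes of scaling, cells or weighting, Acot1, Acadl, Acaa2, Ech1, Pex11a and Acot2 stayed past 1.5-fold in 9 and Abcd3 in 7. With TMM scaling 1 member was lower and the mitochondrial and peroxisomal sums were 1.20 and 1.03. With totals that leave out mitochondrially encoded and ribosomal protein genes 1 was lower and the mitochondrial sum was 1.15, and with cells weighted equally it was 1.101. At 20 CPM 3 were higher and 1 lower. At a threshold looser than 1.5-fold 8 were higher, and at 2-fold 3 were higher and 0 lower. Counting Ech1, Eci2 and Crat as peroxisomal gave a peroxisomal median of 0.17 and sum of 1.34, and counting them as mitochondrial gave a mitochondrial sum of 1.19.

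Other alternatives were chosen after seeing the data. In cycling cells 1 member was lower, the peroxisomal median was 0.20 and the sums were 1.14 and 1.08. Without clusters 5 and 14 the sums were 1.14 and 0.996. Without Acadl and Acaa2 the mitochondrial sum was 1.02. Between clusters 0 and 9 the sums were 1.19 and 1.06. Between clusters 1 and 12, 3 members were higher and 1 lower, the sums were 1.008 and 0.995, and the log2 folds of Acot1 and Acot2 changed sign to -0.15 and 0.54. Between clusters 2 and 11, 1 was lower, the peroxisomal median was 0.28 and the sums were 1.16 and 1.11. Between clusters 5 and 14 the mitochondrial sum was 1.21. The cause was not tested for any of these, except that the stricter level filter and other thresholds count fewer or more genes by construction. The share of all genes is not given at 20 CPM, at other thresholds, for cycling cells or for the cluster pairs. Nothing is read from the counts of members in those settings. Genes under about 5 CPM, such as Ehhadh, Ppara and Ppargc1a, are limited by depth.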

Other observations

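Besides Acot2, some members were abundant outside the fibroblast-like clusters. Macrophage-like cells, 150 control cells and 1 stimulated cell, held Cat at 42.6 CPM and Hsd17b4 at 29.9 CPM, against medians of 16.9 and 11.5 CPM over the control fibroblast-like clusters. Crat was at 27.0 CPM there against 14.6 CPM. Cat and Hsd17b4 were also high outside these cells. Unnamed cluster 10 held them at 47.0 and 38.7 CPM, from 34 and 28 UMIs. Fibroblast-like cluster 5 held Hsd17b4 at 26.1 CPM (22.85 to 29.65), which overlaps the macrophage-like interval of 22.34 to 39.22, and Cat at 26.1 CPM. Mesothelial-like cells, 57 control and 23 stimulated, held Acaa2 at 66.3 CPM and Echs1 at 66.3 CPM, both above every control fibroblast-like cluster. Acot1 was at 22.3 CPM there from 36 UMIs, above every fibroblast-like cluster of either library. Its interval of 15.62 to 30.87 overlapped those of the stimulated clusters 9, 11 and 14. All these levels carry counting error, and those of the macrophage-like, mesothelial-like and unnamed cells are of mixed libraries. No comparison between the libraries was made within these cells.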
